A study of Mus musculus with 8 samples.

Results

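The genes described here are 9 genes that take up, store, convert and sense retinoids, the vitamin A compounds: Stra6, Rbp2, Lrat, Dhrs3, Aldh1a1, Aldh1a3, Crabp2, Rarb and Rarg. They were taken by gene symbol from the 19938 genes that a single-symbol probe set measured. A gene's probe set was to be chosen by its mean signal over all 8 arrays, but each of the 9 had 1 such probe set, so this used no value. No filter on low signals was applied, and all 9 were tested. Expression was measured with Affymetrix arrays in 8 mouse colonic tumors, 1 array per tumor, and values are log2 signals of the robust multi-array average (RMA), in which a difference of 1 is a doubling. The serrated group (3 arrays) held serrated tumors of the proximal colon with the labelled genotype K-rasG12Dint/Ink4a/Arf-/-. The K-rasG12D AOM group (3 arrays) held distal colon tumors of K-rasG12Dint mice. The LSL AOM group (2 arrays) held distal colon tumors of LSL-K-rasG12D/+ mice, whose sample titles call them wt. AOM is azoxymethane, a colon carcinogen, and the labels name it for both AOM groups but not for the serrated group. LSL is a lox-stop-lox cassette, a block on expression that a recombinase can cut out. The labels name neither the promoter that drives a recombinase nor the age of the mice. Tumor type, colon segment, AOM and the Ink4a/Arf genotype changed together between serrated and AOM tumors and cannot be told apart, and no normal colon was measured. LSL AOM tumors also differed from serrated tumors in the labelled K-ras genotype. That difference enters every comparison that includes them, also that with all AOM tumors.

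Retinol reaches cells bound to a plasma carrier or from digested food, and in the gut it is held in the cytoplasm by retinol-binding proteins and stored as esters. Dehydrogenases oxidize it reversibly to retinal and then irreversibly to retinoic acid, which binds nuclear receptors of the RAR type that act as dimers with RXR receptors. In the intestine this supply is known for its part in epithelial differentiation and in the homing of immune cells. Several genes of the pathway, Rarb among them, carry retinoic acid response elements and are themselves induced by retinoic acid.

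The DNA before the start sites of Stra6, Rbp2 and Rarb is shown because Stra6 and Rbp2 had the largest differences of the 9 genes, in opposite directions, and because Rarb carries the best-known response element of the family. RefSeq windows, on build GRCm38.p6, ran from 250 bases before to 50 after each start and matched 7 of the 9 genes, in 14 windows. Aldh1a3 and Crabp2 had no window here. The 250 bases before the start are printed 5′ to 3′ on the gene's strand, and capitals mark each receptor half-site, meaning AGGTCA or else AGTTCA, or the forms GGGTCA or else GGTTCA, on either strand.
Stra6 (first of 4 start sites, chr9:58128838-58129087, + strand): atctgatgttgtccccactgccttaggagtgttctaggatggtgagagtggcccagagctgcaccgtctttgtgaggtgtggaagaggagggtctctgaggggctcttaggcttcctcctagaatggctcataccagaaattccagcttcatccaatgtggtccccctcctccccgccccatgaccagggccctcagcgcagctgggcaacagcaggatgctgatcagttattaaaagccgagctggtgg
Rbp2 (chr9:98490287-98490536, + strand): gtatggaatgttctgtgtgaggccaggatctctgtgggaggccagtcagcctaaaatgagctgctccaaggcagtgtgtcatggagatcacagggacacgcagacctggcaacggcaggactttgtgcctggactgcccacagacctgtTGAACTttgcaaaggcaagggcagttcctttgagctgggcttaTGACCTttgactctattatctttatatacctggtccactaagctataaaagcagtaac
Rarb (chr14:16575477-16575726, - strand): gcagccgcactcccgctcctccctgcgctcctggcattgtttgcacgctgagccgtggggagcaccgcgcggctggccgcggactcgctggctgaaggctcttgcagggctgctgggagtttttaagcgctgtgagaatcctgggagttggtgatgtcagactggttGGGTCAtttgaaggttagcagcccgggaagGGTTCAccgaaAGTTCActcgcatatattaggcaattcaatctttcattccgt
The Rarb window held 3 half-sites, of which 2 formed a direct repeat with 5 bases between them, the DR5 arrangement, at bases -53 to -37 from the start. The Rbp2 window held 2 half-sites, both on the opposite strand and too far apart to form a repeat of the kinds searched. The Stra6 window shown held 0, and over its 4 windows Stra6 held 1. Direct repeats with 1, 2 or 5 bases between half-sites (DR1, DR2 and DR5) were searched on both strands. Among 32851 windows of all genes, of 300 bases each, 0.222% held a DR1, 0.268% a DR2 and 0.0974% a DR5, while 43.7% held at least 1 single half-site. Of the 14 windows of these genes the Rarb window was the only one with a direct repeat. A match of letters describes the sequence and shows no binding, and an empty window says only that these letters are not in it.

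On the arrays as a whole, the median gene stood at 4.17 to 4.31, and the spread over genes (SD) was 1.77 on serrated replicate 1 against 2.00 to 2.13 on the other 7 arrays. Where that array stood apart from its group in a gene that passed, the value without it is given. Of 6 epithelial genes, Vil1, Epcam, Krt8, Krt18 and Cdh1 did not pass between serrated and all AOM tumors, with log2 differences of -0.01 (Cdh1) to 0.60 (Vil1), and each was well above the median gene on all 8 arrays. The other, Cdx2, an intestinal lineage factor, rose by 2.56 ± 0.27 (limma adjusted p = 0.00130). The labels name no batch. Sample titles give each tumor its own number, but do not say whether it names a mouse. The spread behind each p-value is therefore that between the samples and may be partly technical.

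Between serrated tumors and all AOM tumors, the uptake receptor gene Stra6 fell (23.1-fold lower) and the retinol-binding gene Rbp2 rose (28.4-fold higher), and the retinal dehydrogenase gene Aldh1a1 rose. The other 6 genes, among them both nuclear receptors, did not pass the test. The AOM side of this comparison is the mean of the 2 AOM group means, and a gene passed with a Benjamini-Hochberg adjusted p under 0.05 over all 19938 genes in limma. Thus 2 of 9 genes were higher (22.2%) and 1 of 9 was lower (11.1%), where 3.62% of all genes were higher and 5.76% lower. The 9 genes had a median log2 difference of -0.21, against 0.04 over all genes. The genes were chosen with results of these data known, so their share beside the background is a description. When all arrays were scaled to one SD and median, an alternative chosen after seeing the data, 55.1% of called genes were higher in serrated tumors, against 38.6% without scaling, and the same 3 of the 9 genes passed in the same directions. The call of Aldh1a1 was less stable. It was lost with limma-trend, and without serrated replicate 2 or 3 or any K-rasG12D AOM array. The share of 22.2% depends on that call.

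**Figure D1:**
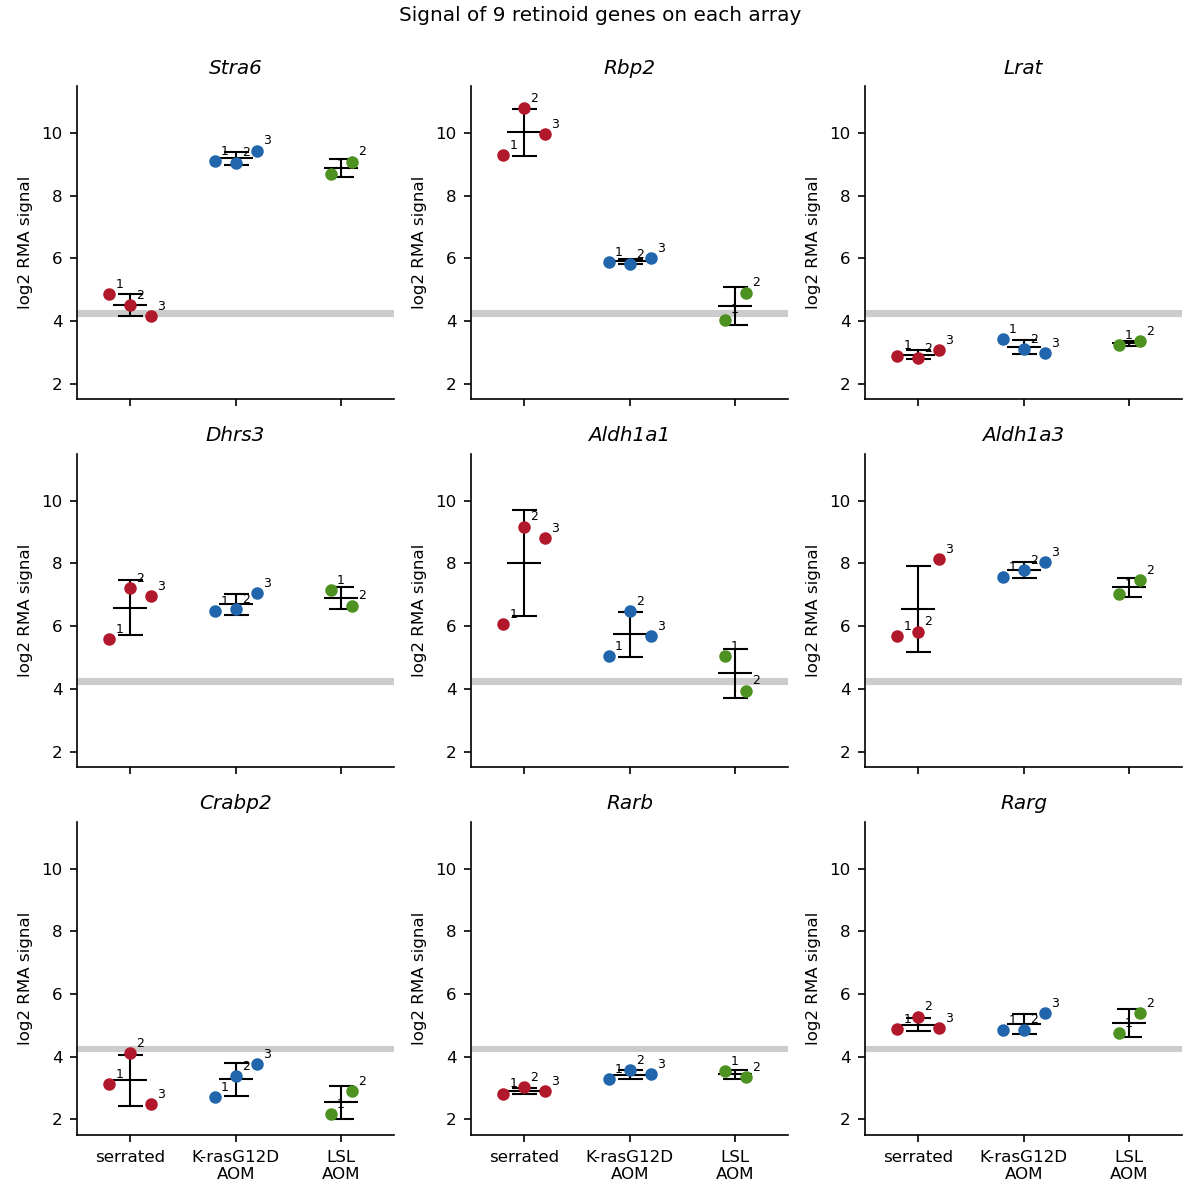
Log2 RMA signal of each of the 9 genes on each array (points, numbered by replicate) in serrated (n = 3), K-rasG12D AOM (n = 3) and LSL AOM tumors (n = 2). Black bars are group means with 1 SD, and the grey band spans the medians of all genes on the 8 arrays, 4.17 to 4.31. Stra6 is low and Rbp2 high on all serrated arrays, while Aldh1a1, Aldh1a3 and Dhrs3 each have 1 serrated array apart from the other two.

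Stra6 encodes the membrane receptor that takes up retinol from its plasma carrier, retinol-binding protein 4. Its signal was 4.86, 4.51 and 4.16 on the serrated arrays, 9.10, 9.05 and 9.44 on the K-rasG12D AOM arrays, and 8.68 and 9.09 on the LSL AOM arrays. All serrated arrays lay near the median gene and far below every AOM array, with no overlap. The log2 difference was -4.53 ± 0.20 (SE), a 23.1-fold lower signal, with a 95% confidence interval of -4.99 to -4.07 (adjusted p = 3.15e-05). It ranked 2 of 19938 by p in this comparison and 1 of 19938 against K-rasG12D AOM tumors alone, where the difference was -4.68 ± 0.22 (adjusted p = 8.17e-05). Against LSL AOM tumors it was -4.38 ± 0.25 (adjusted p = 0.000106). Each single AOM comparison uses the same serrated arrays, so these values are not separate support for each other. A signal this near the median gene may lie close to the floor of the array, in which case the fold understates the difference. In a bulk tumor, fewer cells of a type and less RNA per cell cannot be told apart, here and for each gene below. With each array left out in turn, the difference ran between -4.70 and -4.36 and passed in 8 of 8 cases.

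The carrier that Stra6 binds, Rbp4, did not pass, with 3.77, 3.18 and 3.69 on the serrated arrays, 3.64, 3.995 and 3.65 on the K-rasG12D AOM arrays and 3.11 and 3.48 on the LSL AOM arrays (log2 difference 0.02 ± 0.19, adjusted p = 0.966). Stra6l, a related receptor gene, did not pass either (-0.47 ± 0.24, adjusted p = 0.272). The genes whose values lay nearest to those of Stra6 were Mmp7, a matrix protease, Wif1, a secreted Wnt inhibitor, and Tnfrsf11b, a decoy receptor. Nearness is the root mean square distance over the 8 arrays after each gene is centred on its own mean. It was 0.49, 0.50 and 0.51 for these genes, where Stra6 itself deviated from its mean by 2.22. Mmp7 stood at 4.13, 3.70 and 3.86 on the serrated arrays, 8.01, 8.78 and 7.97 on the K-rasG12D AOM arrays and 8.76 and 7.86 on the LSL AOM arrays.

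Rbp2 encodes cellular retinol-binding protein type II, which holds retinol and retinal inside absorptive cells of the small intestine. Its signal was 9.30, 10.80 and 9.96 on the serrated arrays, 5.89, 5.83 and 5.998 on the K-rasG12D AOM arrays, and 4.05 and 4.91 on the LSL AOM arrays. The lowest serrated array lay well above the highest AOM array, and the 2 AOM groups did not overlap either. The mean was 10.02 ± 0.75 (SD, n = 3) in serrated, 5.91 ± 0.09 (SD, n = 3) in K-rasG12D AOM and 4.48 ± 0.61 (SD, n = 2) in LSL AOM tumors. The log2 difference of serrated from all AOM tumors was 4.83 ± 0.33 (95% confidence interval 4.08 to 5.58, adjusted p = 0.000189), a 28.4-fold higher signal. It was 4.11 ± 0.37 against K-rasG12D AOM tumors (adjusted p = 0.00101) and 5.54 ± 0.41 against LSL AOM tumors (adjusted p = 0.000393). Leaving out 1 array at a time gave 4.44 to 5.19 against all AOM tumors, passing in 8 of 8 cases.

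Of 10 markers of small-intestinal enterocytes, 5 rose as Rbp2 did, 0 fell and 5 did not pass. Their mean signal was 6.41, 5.79 and 4.80 on the serrated arrays, against 2.93 to 3.35 on the K-rasG12D AOM arrays and 3.17 and 3.23 on the LSL AOM arrays. Serrated replicate 1 was the highest in this mean and the lowest of the serrated arrays in Rbp2. Apoa1 (9.54, 6.58 and 4.03 on the serrated arrays) and Apoa4 (9.99, 5.07 and 4.08), which did not pass, peaked on it. Of the genes that rose, Alpi (6.66, 7.73 and 7.65) and Apob (7.43, 8.05 and 7.63) were lowest on it, as Rbp2 was. Fabp2 (8.76, 9.60 and 8.17) and Sis were lowest on replicate 3, and Mttp was highest on replicate 1. Lct, the lactase gene and a defining marker, was below the median gene on 7 of 8 arrays. The 3 genes nearest to Rbp2 were Apob, a chylomicron protein, the sodium-proton exchanger gene Slc9a2 and Tmigd1, at distances of 0.68, 0.75 and 0.79, where Rbp2 itself deviated by 2.37. Colonocyte markers were higher too: 6 of 7 (Slc26a3, Car1, Aqp8, Cdhr5, Mep1a and Krt20) rose and Car4 did not pass, with a median log2 difference over the list of 2.83. Their mean was 9.35, 9.70 and 9.11 on the serrated arrays, 6.40, 5.03 and 7.71 on the K-rasG12D AOM arrays and 6.41 and 6.09 on the LSL AOM arrays. Gastric surface markers (Gkn1, Gkn2, Tff1, Tff2 and Muc5ac) rose in 5 of 5 cases. Their mean, at 7.46, 11.26 and 10.85 on the serrated arrays, ordered these arrays as Rbp2 did. The part of enterocytes, colonocytes or gastric surface cells in the Rbp2 difference was not tested.

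Lrat, the enzyme that esterifies retinol for storage, was dim on every array, below the median gene. It stood at 2.90, 2.82 and 3.08 in serrated, 3.42, 3.11 and 2.97 in K-rasG12D AOM and 3.24 and 3.36 in LSL AOM tumors. Serrated and K-rasG12D AOM arrays overlapped, and the log2 difference from all AOM tumors was -0.30 ± 0.16 (95% confidence interval -0.65 to 0.06, adjusted p = 0.277). Dgat1, an acyltransferase that can also esterify retinol, stood at 6.04, 6.76 and 6.61 in serrated, 5.58, 6.10 and 5.53 in K-rasG12D AOM and 5.94 and 5.54 in LSL AOM tumors (0.74 ± 0.23, adjusted p = 0.0767), and did not pass.

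Dhrs3 encodes a reductase that turns retinal back into retinol. Its signal was 5.58, 7.21 and 6.97 on the serrated arrays, 6.47, 6.55 and 7.06 on the K-rasG12D AOM arrays and 7.15 and 6.65 on the LSL AOM arrays. Serrated replicate 1 lay below every other array, and the other serrated arrays lay within or just above the AOM range. The log2 difference from all AOM tumors was -0.21 ± 0.36 (95% confidence interval -1.03 to 0.61, adjusted p = 0.747). Without serrated replicate 1 it was 0.29 (adjusted p = 0.508), so no direction held for this gene. The genes nearest to Dhrs3 were Mfsd11, Ebp and Lrch1 (0.19, 0.19 and 0.20, where Dhrs3 itself deviated by 0.50).

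Of the enzymes that oxidize retinal to retinoic acid, Aldh1a1 passed in 2 comparisons, and Aldh1a3 and the other 3 measured (Aldh1a2, Aldh1a7 and Aldh8a1) in none. Aldh1a1, the retinal dehydrogenase also used as a stem cell marker in several tissues, stood at 6.07, 9.18 and 8.80 on the serrated arrays. It stood at 5.03, 6.49 and 5.69 on the K-rasG12D AOM arrays and at 5.06 and 3.94 on the LSL AOM arrays. Serrated replicates 2 and 3 lay above all AOM arrays, while serrated replicate 1 lay within the K-rasG12D AOM range. The mean was 8.02 ± 1.70 (SD, n = 3) in serrated, 5.73 ± 0.73 (SD, n = 3) in K-rasG12D AOM and 4.50 ± 0.79 (SD, n = 2) in LSL AOM tumors. The log2 difference from all AOM tumors was 2.90 ± 0.68 (95% confidence interval 1.35 to 4.45, adjusted p = 0.0331). It rose by 3.52 ± 0.85 against LSL AOM tumors (adjusted p = 0.0470), and the difference of 2.28 ± 0.76 from K-rasG12D AOM tumors did not pass (adjusted p = 0.117). The fit gives a gene 1 spread over all groups, so for a gene that varies most among serrated arrays these errors are too small. The call against all AOM tumors passed in 1 of 8 cases with an array left out, without serrated replicate 1, where the difference was 3.87 (adjusted p = 0.00117). Without serrated replicate 2 or 3, any K-rasG12D AOM array or either LSL AOM array it did not pass (log2 difference 2.32 to 3.18, adjusted p of 0.0505 to 0.141).

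Aldh1a7, a near copy of Aldh1a1 in mice, had a similar order of arrays, at 2.90, 5.29 and 5.38 in serrated, 2.32, 3.56 and 2.24 in K-rasG12D AOM and 2.30 and 2.25 in LSL AOM tumors. It did not pass (2.03 ± 0.57, adjusted p = 0.0587), and signals of such copies are uncertain as to which copy they measure. The mean of gastric surface markers ordered the serrated arrays as Aldh1a1 did, with replicate 1 the lowest, but Rbp2 and Dhrs3 had the same order. The mean of Gkn1, Gkn2, Tff1, Tff2 and Muc5ac was 7.46, 11.26 and 10.85 on the serrated arrays. It was 3.33 to 3.40 on the K-rasG12D AOM arrays and 3.19 and 3.78 on the LSL AOM arrays, and 5 of 5 rose. The part of such cells in the Aldh1a1 difference was not tested. The nearest genes to Aldh1a1 were Me1, an NADPH-forming malic enzyme, Vstm5 and the aquaporin gene Aqp3, at distances of 0.51, 0.54 and 0.55, where Aldh1a1 itself deviated by 1.72.

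Aldh1a3, a second retinal dehydrogenase gene, stood at 5.68, 5.83 and 8.14 on the serrated arrays. It stood at 7.56, 7.78 and 8.05 on the K-rasG12D AOM arrays and at 7.02 and 7.46 on the LSL AOM arrays. Serrated replicates 1 and 2 were below all AOM arrays and serrated replicate 3 above them all, so the serrated SD of 1.38 exceeded the 0.25 and 0.31 of the K-rasG12D AOM and LSL AOM groups. The log2 difference from all AOM tumors was -0.97 ± 0.51 (95% confidence interval -2.13 to 0.19, adjusted p = 0.279). Without serrated replicate 3 it was -1.76 and passed (adjusted p = 0.00169), and over the other 7 single omissions it did not, with -0.54 (adjusted p = 0.635) without serrated replicate 1. Aldh1a1 and Aldh1a3 thus ordered the serrated arrays differently, with replicate 3 high in both, replicate 2 high only in Aldh1a1, and replicate 1 low in both.

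Aldh1a3 lay nearest to Hells, a chromatin remodeler of dividing cells, Stc1, a secreted glycoprotein, and Cd53, a tetraspanin of leukocytes, at distances of 0.22, 0.25 and 0.27, where Aldh1a3 itself deviated by 0.89. Markers of macrophages and dendritic cells, cells that also make retinoic acid in the gut, fell in 6 of 9 cases, with 0 higher. Their mean was 5.08, 4.93 and 5.62 on the serrated arrays, 5.996, 6.504 and 6.41 on the K-rasG12D AOM arrays and 6.57 and 6.11 on the LSL AOM arrays. Serrated replicate 3 was the highest of its group here too, but below every AOM array, where Aldh1a3 was above them all. Within the serrated group Itgax and Cd14 were highest on replicate 1. Of 8 fibroblast markers 3 fell and 0 rose, and their mean was 6.29, 5.90 and 6.91 on the serrated arrays, 6.95 to 7.45 on the K-rasG12D AOM arrays and 7.67 and 6.68 on the LSL AOM arrays. Endothelial markers, 0 of 5 passing, averaged 4.44, 4.39 and 5.75 on the serrated arrays, 4.86 to 5.16 on the K-rasG12D AOM arrays and 4.86 and 4.23 on the LSL AOM arrays. The part of these cells in the Aldh1a3 signal was not tested.

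Crabp2 encodes cellular retinoic acid-binding protein 2, which carries retinoic acid to its receptors. It was below the median gene on every array, at 3.13, 4.10 and 2.49 in serrated, 2.72, 3.37 and 3.75 in K-rasG12D AOM and 2.18 and 2.90 in LSL AOM tumors. All groups overlapped, and the log2 difference from all AOM tumors was 0.33 ± 0.38 (95% confidence interval -0.53 to 1.197, adjusted p = 0.619). The mean of squamous epithelium markers ordered the arrays as Crabp2 did within the serrated and LSL AOM groups, but not within the K-rasG12D AOM group. Single markers differed: Krt13, Krt14 and Dsg3 did not keep the order within the serrated group, nor Krt4, Krt14 and Dsg3 within the LSL AOM group. The mean of Krt4, Krt5, Krt6a, Krt13, Krt14, Trp63 and Dsg3 was 3.89, 6.96 and 3.59 on the serrated arrays, 4.29, 5.91 and 5.37 on the K-rasG12D AOM arrays and 4.18 and 4.52 on the LSL AOM arrays, with 0 of 7 passing. Serrated replicate 2 was the highest of all 8 arrays in Crabp2 and in this mean, but not in Krt14 or Dsg3. Krt5, a keratin of basal squamous cells, was at 4.33, 8.73 and 2.82 on the serrated arrays, 2.86, 6.92 and 5.71 on the K-rasG12D AOM arrays and 2.64 and 5.10 on the LSL AOM arrays. Among the 3 genes nearest to Crabp2 was Cnfn, a protein of cornified squamous layers (distance 0.26, where Crabp2 itself deviated by 0.60), beside Clip4 and Mir23a (0.25 and 0.27). The part of squamous cells in the Crabp2 signal was not tested.

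**Figure D2:**
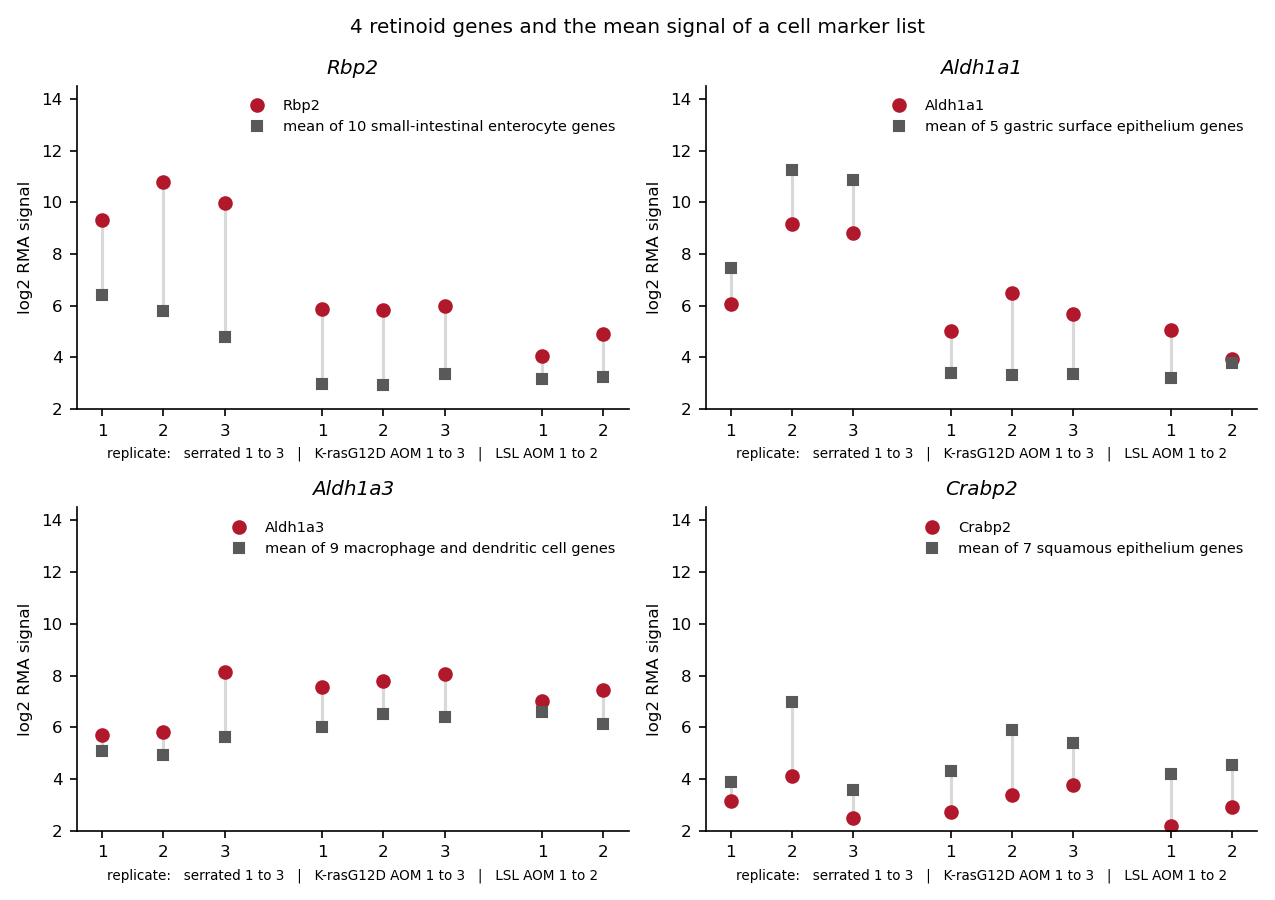
Log2 RMA signal of Rbp2, Aldh1a1, Aldh1a3 and Crabp2 (circles) on the 8 arrays, with the mean signal of a cell marker list on the same array (squares). Rbp2 and the enterocyte list are higher on all serrated arrays but order them differently. Aldh1a1 and the gastric list are lowest on serrated replicate 1 within that group, as is Rbp2. Aldh1a3 exceeds every AOM array on 1 serrated array, while the macrophage and dendritic cell list is below them all on every serrated array. Crabp2 and the squamous list peak on serrated replicate 2.

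Neither receptor gene passed in any comparison. Rarb, the receptor whose own promoter holds the DR5 repeat shown above, stood at 2.82, 3.02 and 2.89 in serrated, 3.28, 3.57 and 3.44 in K-rasG12D AOM and 3.53 and 3.34 in LSL AOM tumors. Every serrated array was below every AOM array, but all 8 were below the median gene. The log2 difference from all AOM tumors was -0.52 ± 0.14 (95% confidence interval -0.85 to -0.19, unadjusted p = 0.00575, adjusted p = 0.0564), and it missed the threshold also with any single array left out (adjusted p of 0.0613 to 0.173). After quantile normalization between arrays it was -0.69 and passed (adjusted p = 0.0371). Rarg, the receptor known in mice mainly from skin and cartilage, stood at 4.88, 5.28 and 4.91 in serrated, 4.85, 4.86 and 5.40 in K-rasG12D AOM and 4.75 and 5.38 in LSL AOM tumors. The groups overlapped, and the difference of -0.03 ± 0.21 had a 95% confidence interval of -0.51 to 0.46 (adjusted p = 0.950). Lrat, Rarb and Rarg deviated from their means by only 0.20, 0.27 and 0.25. Their nearest were Coa6, Tmem237 and Hemk1 for Lrat, Ccl8, Fhl3 and Dazap1 for Rarb, and Hoxc11, Nkpd1 and Olfr224 for Rarg, at distances of 0.08 to 0.09.

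**Figure D3:**
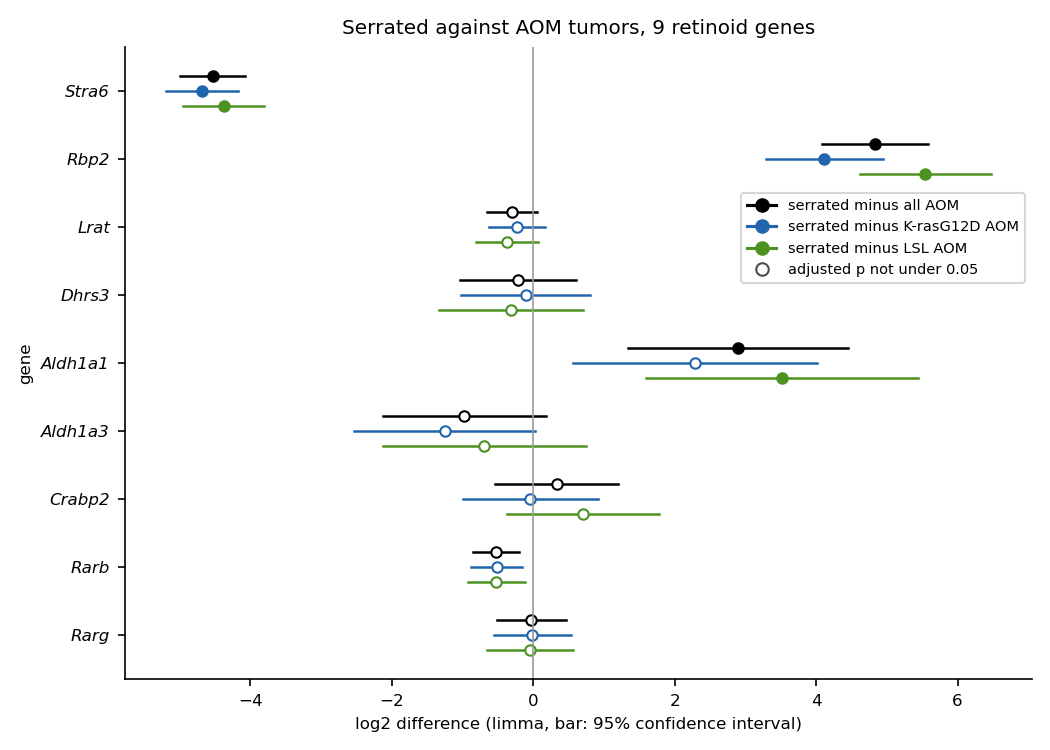
Log2 differences of serrated tumors from all AOM tumors (black), from K-rasG12D AOM tumors (blue) and from LSL AOM tumors (green) for the 9 genes, with 95% confidence intervals from limma. Filled points passed at an adjusted p under 0.05, which Stra6 and Rbp2 did in all 3 comparisons and Aldh1a1 in 2 of them, and the 3 comparisons share the serrated arrays.

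Against each AOM group alone, the calls were similar. Of the 9 genes, Rbp2 was higher and Stra6 lower in serrated than in K-rasG12D AOM tumors, where 2.46% of all genes were higher and 3.99% lower. Rbp2 and Aldh1a1 were higher and Stra6 lower in serrated than in LSL AOM tumors, where 2.31% of all genes were higher and 3.40% lower. Aldh1a3 differed by -1.25 ± 0.57 from K-rasG12D AOM tumors (adjusted p = 0.241) and by -0.69 ± 0.63 from LSL AOM tumors (adjusted p = 0.590).

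The AOM groups, which differ in the labelled K-ras genotype, were compared with each other. None of the 9 genes passed, and 0 of 19938 genes did so in limma (0%), while 1666 genes had an unadjusted p under 0.05, among them 1 of the 9, Rbp2. Rbp2 was higher by 1.43 ± 0.41 in K-rasG12D AOM than in LSL AOM tumors (unadjusted p = 0.00698, adjusted p = 0.365), with no overlap of arrays. Aldh1a1 was at 5.03 to 6.49 in K-rasG12D AOM and 3.94 and 5.06 in LSL AOM tumors, with overlap (1.24 ± 0.85, adjusted p = 0.835). Stra6 differed by 0.31 ± 0.25 (adjusted p = 0.885), Aldh1a3 by 0.56 ± 0.63 (adjusted p = 0.958) and Crabp2 by 0.74 ± 0.47 (adjusted p = 0.806). With limma-trend 0 genes passed, and with array weights 67 were higher and 56 lower, of which 0 were among the 9.

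Other genes of the pathway, 49 in 8 roles, were set beside the 9. Between serrated and all AOM tumors 5 of the 49 rose (10.2%), 3 fell (6.12%) and 41 did not pass, with a median log2 difference of 0.16. The shares over all genes were the 3.62% and 5.76% given above. Against K-rasG12D AOM tumors 3 rose (6.12%: Dhrs9, Adh7 and Rxra) and 0 fell, where 2.46% of all genes were higher and 3.99% lower. Against LSL AOM tumors 2 rose (4.08%: Dhrs9 and Adh7) and 2 fell (4.08%: Rdh9 and Tgm2), where 2.31% of all genes were higher and 3.40% lower. Isx, Rdh7 and Rdh10, which passed against all AOM tumors, passed against neither AOM group alone. Between the AOM groups 0 of 49 passed in limma, and 3 had an unadjusted p under 0.05. These counts depended on single arrays: without serrated replicate 2 they came to 2 against all AOM tumors, without any 1 of the K-rasG12D AOM arrays to 4, and without serrated replicate 1 to 13. The calls over all genes moved too, from 722 higher and 1149 lower with all arrays to 275 and 368 without serrated replicate 2. They were 411 to 532 higher and 572 to 818 lower without a K-rasG12D AOM array, and 1215 and 875 without serrated replicate 1.

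Of 8 uptake and carotenoid genes, 1 rose. Isx, an intestinal homeobox factor that in mice represses the carotenoid-cleaving gene Bco1 and the uptake receptor gene Scarb1, stood at 4.65, 6.39 and 6.63 in serrated, 4.26, 4.76 and 3.63 in K-rasG12D AOM and 3.59 and 3.84 in LSL AOM tumors. Serrated replicate 1 lay among the K-rasG12D AOM arrays, and the log2 difference was 1.92 ± 0.45 (adjusted p = 0.0310). Without that array it was 2.54 (adjusted p = 0.00134). It did not pass without serrated replicate 2, K-rasG12D AOM replicate 1 or 3 or either LSL AOM array (adjusted p of 0.0594 to 0.137). Bco1 (0.07 ± 0.14, adjusted p = 0.799) and Scarb1 (-0.17 ± 0.21, adjusted p = 0.657) did not pass.

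Of 16 genes that interconvert retinol and retinal, 3 rose, 2 fell and 11 did not pass. Adh7, an alcohol dehydrogenase of the stomach that oxidizes retinol, stood at 3.64, 4.74 and 4.82 in serrated, 2.54, 2.53 and 2.85 in K-rasG12D AOM and 2.61 and 2.63 in LSL AOM tumors. No arrays overlapped, and the difference of 1.77 ± 0.27 (adjusted p = 0.00576) passed in 8 of 8 cases with an array left out, with 2.15 without serrated replicate 1. As in Aldh1a1, Rbp2, Dhrs3 and the gastric markers, serrated replicate 1 was the lowest of its group. That array and all AOM arrays lay below the median gene in Adh7. Adh7 also passed against each AOM group alone, but not without serrated replicate 2, among other omissions. Dhrs9, a retinol dehydrogenase of differentiated epithelium, stood at 8.28, 7.85 and 8.36 in serrated, 7.03, 6.24 and 7.12 in K-rasG12D AOM and 6.61 and 7.06 in LSL AOM tumors (1.35 ± 0.24, adjusted p = 0.0122), and did not pass without LSL AOM replicate 1 (adjusted p = 0.0540). Rdh10, the dehydrogenase that makes retinal for retinoic acid in mouse embryos, fell by 0.94 ± 0.24 (adjusted p = 0.0447), at 8.60, 8.25 and 9.23 in serrated, 9.76, 9.93 and 9.62 in K-rasG12D AOM and 9.79 and 9.21 in LSL AOM tumors. Serrated replicate 3 overlapped the LSL AOM arrays, and Rdh10 passed only without that array among the 8 single omissions (adjusted p = 0.00712, otherwise 0.0657 to 0.178). It also lost its call after quantile normalization and after scaling the arrays to one SD.

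Rdh9 fell by 1.78 ± 0.41 (adjusted p = 0.0295) and Rdh7 rose by 0.69 ± 0.18 (adjusted p = 0.0494). Both belong to a mouse family of close copies with Rdh1 and Rdh16, so their signals are uncertain as to the copy. Neither passed against all AOM tumors after quantile normalization. Rdh9 also passed against LSL AOM tumors (log2 difference -2.52 ± 0.50, limma adjusted p = 0.0247), and kept that call after quantile normalization. It did not pass against K-rasG12D AOM tumors (-1.03 ± 0.45, limma adjusted p = 0.227). Rdh9 stood at 5.95, 5.80 and 4.88 in serrated, 7.66, 5.98 and 6.09 in K-rasG12D AOM and 8.08 and 8.07 in LSL AOM tumors, and did not pass without serrated replicate 2 or either LSL AOM array (adjusted p of 0.0866 to 0.0935). Rdh7 was dim, at 2.14 to 2.57 in serrated, 1.73 to 2.21 in K-rasG12D AOM and 1.34 and 1.68 in LSL AOM tumors, and passed in 0 of 8 cases with an array left out (adjusted p of 0.0566 to 0.162).

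None of the 3 retinoic acid-degrading Cyp26 genes passed. Cyp26a1, a gene that retinoic acid induces, stood at 2.52, 2.63 and 2.46 in serrated, 2.21, 2.20 and 2.83 in K-rasG12D AOM and 1.99 and 2.67 in LSL AOM tumors (0.17 ± 0.22, adjusted p = 0.663), below the median gene throughout. Of 8 receptors and cofactors, Rxra, the dimer partner of the RAR receptors, rose by 0.66 ± 0.17 (adjusted p = 0.0454), at 6.21, 6.68 and 6.24 in serrated, 5.38, 5.65 and 5.43 in K-rasG12D AOM and 5.82 and 6.09 in LSL AOM tumors. It did not pass without serrated replicate 2, any K-rasG12D AOM array or either LSL AOM array (adjusted p of 0.0756 to 0.185), and it lost its call with limma-trend. Rara did not pass (-0.07 ± 0.28, adjusted p = 0.891). Of 7 known retinoic acid targets, Tgm2, the tissue transglutaminase, fell by 1.15 ± 0.26 (adjusted p = 0.0270), at 5.81, 6.32 and 6.77 in serrated, 7.19, 7.02 and 7.37 in K-rasG12D AOM and 7.33 and 8.09 in LSL AOM tumors. It did not pass without serrated replicate 2, any K-rasG12D AOM array or LSL AOM replicate 2 (adjusted p of 0.0526 to 0.0998).

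**Figure D4:**
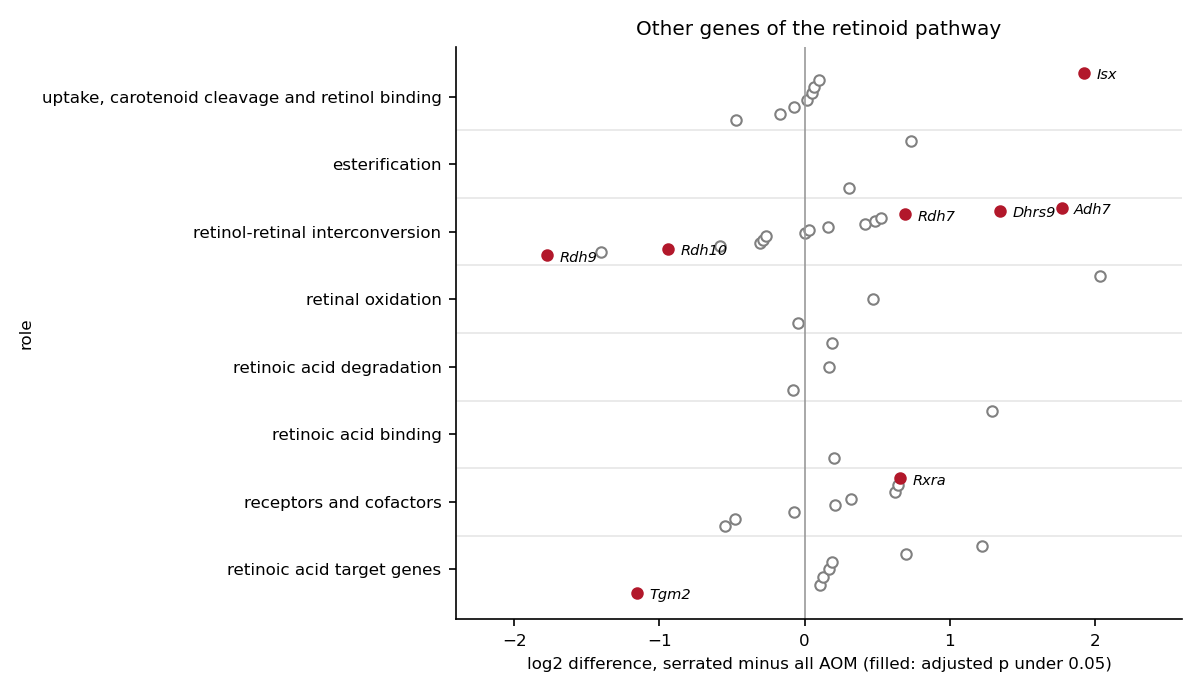
Log2 differences of serrated from all AOM tumors for 49 other genes of the pathway, by role (rows). Filled, named points passed at an adjusted p under 0.05: Isx, Rdh7, Dhrs9, Adh7 and Rxra were higher, and Rdh9, Rdh10 and Tgm2 lower.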

How the data were processed

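Signals were measured in 8 mouse colonic tumors, 1 array each. The deposited values are log2 signals made by the authors with GCOS and RMA, per the submitters' processing notes, and versions and settings are not given in the sources used here. That the scale is log2 was taken from the values, which ran from 0.56 to 13.47. No detection calls were used here, so a dim gene is one below the median gene. Of 35557 probe sets, 21789 carried 1 gene symbol in the platform's annotation, 1621 several and 12147 none. The first kind gave 19938 genes, and for the 999 genes with several probe sets the brightest was taken. Groups came from the genotype labels.

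In R 4.3.3 with limma 3.58.1, the 3 groups' means were fitted once over the 8 arrays (lmFit and eBayes, 5 residual degrees of freedom), giving 4 contrasts, adjusted by Benjamini-Hochberg over all genes. Errors of differences are standard errors. The fit was tested on simulated data. The 9 genes, the other pathway genes and the marker lists were chosen with earlier results of these data known. The text names the 9 genes, the other pathway genes that passed or round off a role, and the 3 nearest genes of each of the 9. Alternatives were limma-trend with robust eBayes, array weights, quantile normalization, leaving out the dimmest 40% of genes, averaging probe sets, omitting each array, and scaling arrays to one SD. Promoter motifs were searched in Python 3.11.15. The number of arrays limits the precision.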

Additional observations from a re-analysis of the deposited data

How the results depend on the processing

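Stra6 and Rbp2 kept their direction and their call in all 3 comparisons with serrated tumors under every alternative run. The members called against all AOM tumors (3), K-rasG12D AOM tumors (2) and LSL AOM tumors (3) numbered 2 to 3 in each when an array was left out, and 0 in each case between the AOM groups. Other pathway genes called (8, 3, 4 and 0) numbered 2 to 13, 0 to 8, 0 to 9 and 0. With limma-trend Aldh1a1 lost its call against all AOM tumors (adjusted p = 0.0529) and against LSL AOM tumors (0.0764). Array weights, whose estimation stopped before it converged, gave serrated replicate 2 a weight of 25.62 and serrated replicates 1 and 3 weights of 0.17 and 0.25. They turned Dhrs3 to 0.44 against all AOM and 0.58 against K-rasG12D AOM tumors and Crabp2 to 0.98 against K-rasG12D AOM tumors. They called 8, 8 and 7 of the 9 genes and 33, 32 and 24 of the 49 pathway genes. Of all 19938 genes they called 5149 higher and 5185 lower against all AOM tumors. Against K-rasG12D AOM tumors these were 4840 and 5122, and against LSL AOM tumors 3004 and 3352. These calls rest mostly on 1 serrated array. Quantile normalization called 5 pathway genes against K-rasG12D AOM tumors, where it called 811 of all genes higher and 1007 lower. Of the 9, it added Rarb against all AOM tumors. Of pathway calls it lost Rdh7, Rdh9 and Rdh10 against all AOM tumors and Adh7 against LSL AOM tumors, while scaling lost Rdh10 and limma-trend Rxra, both against all AOM tumors. Scaling the arrays to one SD called 5 and 7 pathway genes against K-rasG12D AOM and LSL AOM tumors. Over all genes it called 990 higher and 694 lower in the first comparison and 780 and 760 in the second. It raised the share of higher calls over all genes to 58.8% and 50.6% there, against 38.1% and 40.4%. Averaging probe sets changed no call among the 9, but it could not change their values, since each had 1 probe set. Leaving out the dimmest 40%, which removed Lrat, Crabp2 and Rarb, changed no call among the rest. Where leaving out an LSL AOM array left 1, that array was assumed to vary like the other groups. Beyond what is said of the weights, the cause of these changes was not tested. No paired analysis was possible because the labels give no replicate numbers that groups share.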

Other observations

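Several pathway genes that did not pass over all 8 arrays varied within the serrated group. Fabp5, a fatty acid-binding protein that can also carry retinoic acid, stood at 4.66, 6.28 and 6.74 in serrated, 4.43, 5.47 and 4.72 in K-rasG12D AOM and 4.01 and 4.66 in LSL AOM tumors (1.29 ± 0.46, limma adjusted p = 0.119). Meis2, a homeobox gene that retinoic acid induces, stood at 3.68, 6.48 and 5.42 in serrated, 3.72, 5.24 and 3.86 in K-rasG12D AOM and 3.72 and 3.62 in LSL AOM tumors (1.22 ± 0.59, limma adjusted p = 0.239). Its relative Meis1 stood at 3.38, 5.52 and 3.84 in serrated, 3.49, 3.80 and 3.68 in K-rasG12D AOM and 3.67 and 3.22 in LSL AOM tumors (0.70 ± 0.42, limma adjusted p = 0.348). Serrated replicate 2 was the highest of all arrays in both Meis genes, and serrated replicate 1 the lowest serrated array in all 3 genes. Without serrated replicate 1, Fabp5 and Meis2 passed as higher against all AOM tumors, as did Aldh1a7, Dgat1, Ncoa1 and Ncoa3, while Rxrb passed as lower. Rdh7 and Rdh10 lost their calls. Over all genes, 1215 were then called higher and 875 lower, against 722 and 1149 with all 8 arrays. The genes of this paragraph were picked after their values were seen.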
